A study of Mus musculus with 6 samples.

Results

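The genes for 50 factors of cytosolic translation were examined in RNA-seq libraries of mouse cell cultures treated with metformin, a biguanide drug used against diabetes. The genes were chosen by name and known function, from initiation through elongation to the release of the finished protein, and all 50 were found among the 55401 genes of the deposited table. There were 3 control libraries, labelled as having no treatment, and 3 metformin libraries, from cells given 1 μM metformin for 24 h. A protocol field that all 6 libraries share names the metformin treatment, so the groups rest on the titles and on the treatment given for each sample. All 6 libraries came from a line labelled as female germline stem cells (FGSCs) of strain C57BL/6, past passage 20 and grown on STO feeder cells that had been mitotically inactivated. The study calls the libraries repeats and states that its experiments were done at least 3 times, but the sources do not say whether the 3 libraries of a group came from separate cultures, so that p-values measure the spread between these libraries, which may be technical.

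Levels are given in FPKM, the fragments per unit of gene length and of library depth, so that genes of different length can be set side by side. The libraries held an estimated 13400000 to 14000000 mapped fragments each. The labelled cell type was checked against marker genes. None of 6 germline markers reached a mean of 1 FPKM, and 3 of them (Pou5f1, Dppa3 and Dazl) were listed at 0 in all libraries. The summed level of the 6 was 0.48 to 1.38 FPKM in the control and 0.33 to 0.93 FPKM in the metformin libraries. In contrast, 8 of 8 genes listed as blood cell markers (Ptprc, Cd53, Laptm5, Coro1a, Spi1, Tyrobp, Fcer1g and Kit) had a mean of at least 1 FPKM. Their sums were 485 to 490 FPKM in the control and 487 to 498 FPKM in the metformin libraries. Kit, which is not particular to blood cells, had means of 117.6 FPKM in the control and 117.9 FPKM in the metformin libraries. Of 6 mast cell markers, Cpa3 alone reached a mean of 1 FPKM, Fcer1a and Tpsb2 were listed at 0 in all libraries, and the sum was 357 to 386 FPKM in the control and 331 to 349 FPKM in the metformin libraries. None of 8 fibroblast markers of the feeder cells reached a mean of 1 FPKM (sums of 0.42 to 0.68 and 0.48 to 0.59 FPKM, with Lum at 0 throughout). The defining germline markers were therefore at or near 0 in the libraries labelled as FGSCs. The study itself reports expression of the same 6 genes in its FGSC line by RT-PCR, and MVH (the protein of Ddx4) by immunofluorescence. Why those results and the FPKM values differ was not tested, and the text below speaks of the cultures without a cell type. In bulk samples such as these, fewer cells of a type and less RNA per cell cannot be told apart.

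Translation begins when eIF2 carries the initiator tRNA to the small ribosomal subunit, eIF3 and eIF1 prepare that subunit, and the eIF4 factors bring it to the capped mRNA. After the start codon is found, eIF5 and eIF5B let the large subunit join, eEF1 and eEF2 add amino acids to the chain, and eRF1, eRF3 and ABCE1 end the cycle and split the ribosome. Cells are known to control this cycle at eIF2 through the integrated stress response, at eIF4E through mTORC1, and at eEF2 through eEF2 kinase, which itself answers to AMPK, the energy sensor that metformin is known for. These controls act on proteins, and mRNA levels do not measure them.

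Promoter sequences are shown for 4 genes, because the text returns to them. Eef2 and Abce1 are among the members with the smallest p-values of the comparison, and both hold the full cAMP response element TGACGTCA close to the annotated start. Eif2s3x and Eif3f, whose groups also did not overlap, have a tract of pyrimidines at the start annotated by RefSeq. Such a tract defines TOP (terminal oligopyrimidine) mRNAs, but only Eif3f is on the list of TOP members used below. The deposited span of Eif2s3x, on the minus strand, begins at 94212862, upstream of the window printed here. Its tract thus lies at RefSeq's start and not at that of the deposited span. The sequences are RefSeq's for GRCm38.p6, written 5′ to 3′ on the strand of the gene, and capitals mark TGACGTCA in the first pair and the pyrimidine tract, which starts at the annotated first base, in the second pair.
Eef2 (chr10:81176622-81176651, plus strand): aggccgggcgtTGACGTCAgcggtctcttc
Abce1 (chr8:79711732-79711761, minus strand): tcgcggcgcaaTGACGTCAccaacgtcatc
Eif2s3x (chrX:94212632-94212661, minus strand): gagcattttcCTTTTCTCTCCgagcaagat
Eif3f (chr7:108934405-108934434, plus strand): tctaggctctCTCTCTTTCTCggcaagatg

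With the annotated first base counted as 0, the element starts at base 2 of Eef2, just inside the transcript, and at base -10 of Abce1, just before it. RefSeq promoters of 250 bases before to 50 bases after the start were at hand for 41 of the 50 members and for 27025 genes in all. TGACGTCA, which reads the same on both strands, was found in 2.03% of all the promoters and in these 2 of the 41 members. TGATGCAA, a sequence of C/EBP-ATF response elements searched on both strands, was found in 1.03% of all promoters and in 0 of the 41. TATAAA, searched on both strands, was found in 15.7% of all promoters and in 3 members, Eif3b, Eif3f and Eef2. In Eef2 it starts at base -15. A start at C followed by at least 4 further pyrimidines on the gene's own strand was found in 3.01% of all promoters and in Eif2s3x and Eif3f. The listed TOP members Eef1a1, Eef1b2, Eef2, Eif3a and Eif4b had a promoter at hand without such a match. The search at the annotated start therefore misses most of the listed TOP members that it covered. A match describes the letters of the window and is no evidence of binding.

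The translation factors were among the most abundant mRNAs of the cultures and spanned a 1010-fold range of listed levels, from Eif3j1 to Eef1a1. Most of the sequence of both these genes has copies elsewhere in the genome, as described below, so the range is uncertain. All 50 passed the filter of a mean of 1 FPKM that was set for testing, and 46 averaged at least 10 FPKM. Their median level of 67.5 FPKM lay at percentile 92.3 of the 10661 genes above the filter, and the lowest member, Eif3j1, lay at percentile 29.5. Together they took 3.35% to 3.40% of all FPKM in the 6 libraries. Eef1a1 alone, which encodes the GTPase that delivers aminoacyl-tRNAs to the ribosome, made up 41.1% to 42.3% of the members' sum.

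**Figure D1:**
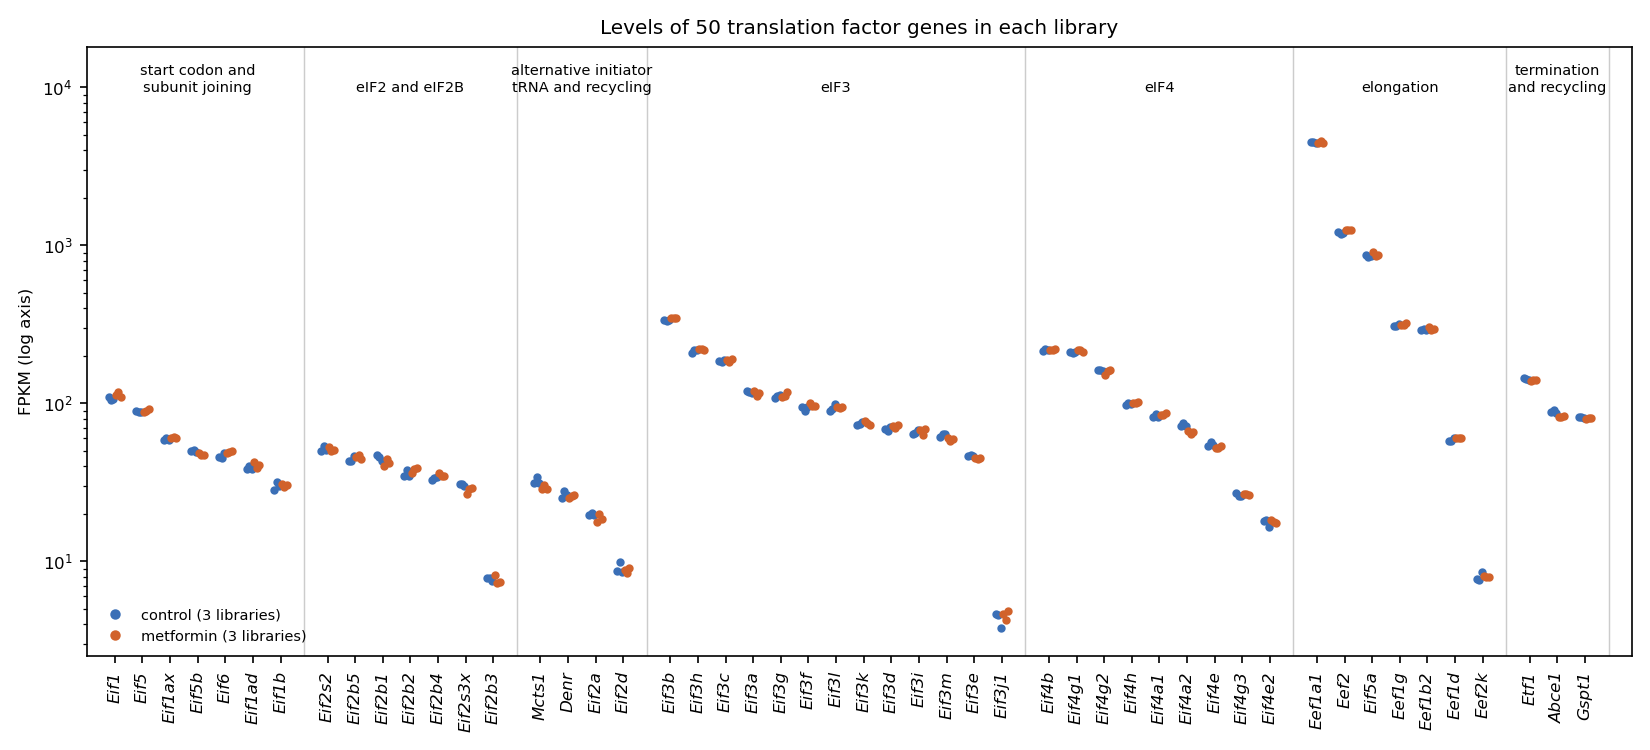
FPKM of each of the 50 genes in every library (vertical log axis), ordered within their roles by mean level; blue points are the 3 control and orange points the 3 metformin libraries. The span of levels between genes far exceeds the differences between libraries of a gene, although most neighbouring genes overlap. Eef1a1, Eef2 and Eif5a stand above all others. The widest difference between genes, 1010-fold as listed, is Eef1a1 over Eif3j1, both uncertain in level.

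The 3 members above all others were elongation factors. Eef1a1 had 4514.71, 4529.41 and 4465.78 FPKM in the control and 4420.56, 4572.2 and 4420.66 FPKM in the metformin libraries. Eef2, the translocase that moves the ribosome along by a codon, followed with a mean of 1224 FPKM. Eif5a, whose hypusine-bearing product helps ribosomes through runs of proline, had 863.79, 843.14 and 860.14 FPKM in the control and 904.16, 856.2 and 866.32 FPKM in the metformin libraries. The ranges of these 3 genes did not overlap each other, nor that of Eif3b, the fourth, with a mean of 340.0 FPKM. Farther down the order neighbours were mostly not separated, and the ranges over the 6 libraries overlapped in 33 of the 49 neighbouring pairs.

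The lowest 4 members each came from another role. Eif3j1 (mean 4.453 FPKM) encodes a loosely bound subunit of eIF3, and its libraries held 4.61, 4.57 and 3.79 FPKM in the control and 4.67, 4.26 and 4.82 FPKM in the metformin group. Eif2b3, the gamma subunit of the eIF2 exchange factor, had 7.88, 7.9 and 7.47 FPKM in the control and 8.17, 7.33 and 7.39 FPKM in the metformin libraries. Both genes had control and metformin values that interleaved. Eef2k, the kinase that inhibits eEF2, had 7.76, 7.65 and 8.6 FPKM in the control and 8.08, 7.95 and 7.92 FPKM in the metformin libraries, so that Eef2 outnumbered its kinase 139 to 158 times in each library. Eif2d, which releases tRNA and mRNA from small subunits, had 8.64, 9.87 and 8.54 FPKM in the control and 8.85, 8.49 and 9.03 FPKM in the metformin libraries. Again the groups overlapped in both genes, and the highest control library of each stood above all 3 metformin libraries.

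mRNAs of subunits that share a complex were far from equal in level. Among the 13 eIF3 subunits the highest and the lowest mean differed 76.4-fold, and Eif3b exceeded Eif3e 7.01 to 7.74 times in the 6 libraries. Within eIF2B, Eif2b5, the catalytic subunit, exceeded Eif2b3 5.45 to 6.44 times and Eif2b1 exceeded it 4.94 to 6.06 times. Among the exchange factors of eEF1A, Eef1g exceeded Eef1d 5.15 to 5.39 times and Eef1b2 exceeded it 4.76 to 5.10 times. The scaffold Eif4g1 exceeded the cap-binding Eif4e 3.67 to 4.17 times. Such ratios depend on the gene lengths that the authors used and on how reads shared with other copies of a gene were counted, which is not given in the sources used here.

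Several members share much of their sequence with other places in the genome. An exact copy elsewhere in the genome (NCBIM37, in windows of 31 bases along the longest coding transcript of GENCODE M1) was found for 94.7% of the windows of Eif2s3x, 87.6% of Eif3j1, 86.7% of Eef1a1, 86.1% of Eif4a1, 72.5% of Eef1g, 70.4% of Eif1, 58.3% of Eif3m and 50.1% of Eif3e. The levels of these 8 genes are therefore uncertain. In Eif3j1, 41.0% of the windows also occur in its paralogue Eif3j2. For 25 of the 50 members, under 5% of the windows had such a copy, and Mcts1, Eif2b3 and Eif2b4 had none. In addition, 9 members overlap another gene with a mean of at least 1 FPKM, such as Eif5b with Rev1 (2794 bases, mean 10.8 FPKM) and Eif2b4 with Snx17 (204 bases, mean 48.2 FPKM), both on the opposite strand.

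Between metformin and control, mRNA levels of the translation factors differed little and none of the 50 passed the test. No member had an adjusted p under 0.05 by limma, which tests the whole table of 10661 genes with Benjamini-Hochberg adjustment, against 0.0281% of all genes called higher and 0% called lower, and 0.0392% and 0% of genes averaging at least 10 FPKM. At an unadjusted p under 0.05, limma gave 6 members higher and 6 lower, where 6.03% and 4.81% of all genes stood, and 7.89% and 6.63% of genes averaging at least 10 FPKM. Without limma's trend the counts were 0 and 6, and with each gene's own spread 3 and 5. Leaving out control 1 gave 3 and 6, and leaving out control 2 gave 2 and 2. The split was 5 higher and 8 lower on the TPM scale, on which all libraries have equal sums, and 3 and 8 with quantile normalization. The shares of all genes above belong to the first fit. Those under the other fits are not given, so these other counts have no background here. Fold changes here and below are metformin over control on the scale of log2(FPKM + 1), which understates the change of low genes.

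The size of the differences was bounded as far as these libraries go. The intervals rest on the spread between libraries of a group, which may be technical. For all 50 members the 95% limma interval lay within 1.2-fold of FPKM + 1 in either direction (0.263 on the log2 scale). With a pseudocount of 0.1 this held for 49 of the 50, and with each gene's own spread for 48. In the fit reported here it held for 77.2% of all genes tested and 94.6% of genes averaging at least 10 FPKM. The widest reach downward was -0.244 for Mcts1 and the widest upward 0.251 for Eif3j1. Point estimates ran from -0.16 for Eif4a2 to 0.09 for Eif1. The median was 0.0144, beside 0.00411 over all genes, with 29 members above 0 and 21 below. Above 0 stood 52.3% of all genes and 52.7% of genes averaging at least 10 FPKM.

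**Figure D2:**
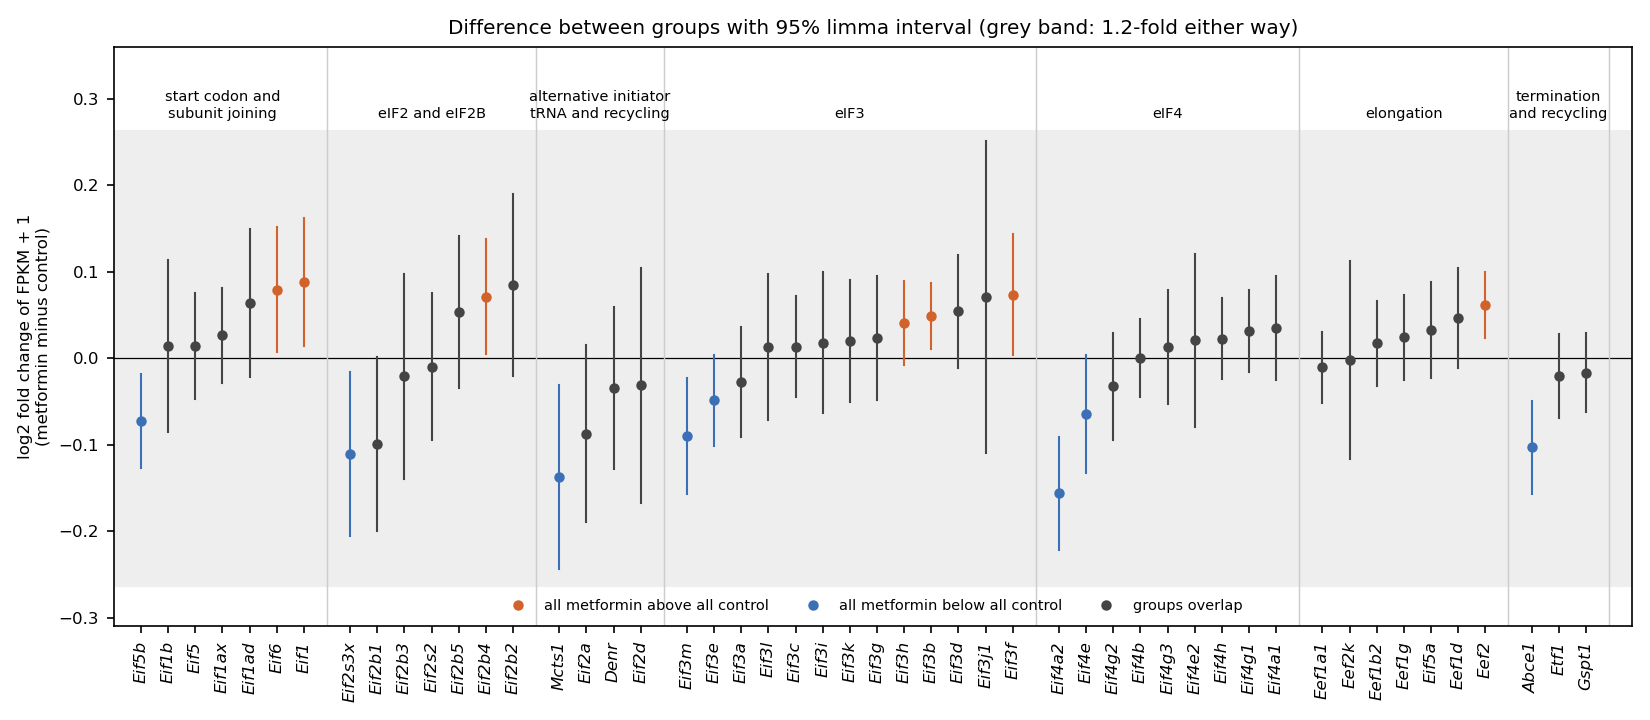
Log2 fold change of FPKM + 1 (metformin minus control) of each member with its 95% limma interval, by role; orange and blue mark genes whose groups did not overlap, and the grey band is 1.2-fold either way. All 50 intervals lie inside the band, 7 genes are orange and 8 are blue.

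The 3 metformin libraries lay entirely above the 3 control libraries for 7 members and entirely below them for 8, where 8.89% and 8.10% of all genes did so, and 11.3% and 9.95% of genes averaging at least 10 FPKM. With a library left out, groups overlap less by construction, and the shares of all genes are not given for that setting. Without control 2 the counts higher and lower were 12 and 8. Without control 3 they were 13 and 11, and without metformin 2 they were 13 and 12. For each of the 15 without overlap when all libraries were kept, the exact two-sided permutation test gives p = 0.1 by construction. This is the smallest p that 3 against 3 allows. The 7 higher genes were Eif1, Eif6, Eif2b4, Eif3b, Eif3f, Eif3h and Eef2. The 8 lower genes were Eif5b, Eif2s3x, Mcts1, Eif3e, Eif3m, Eif4a2, Eif4e and Abce1. Each direction thus held genes of several steps of translation.

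**Figure D3:**
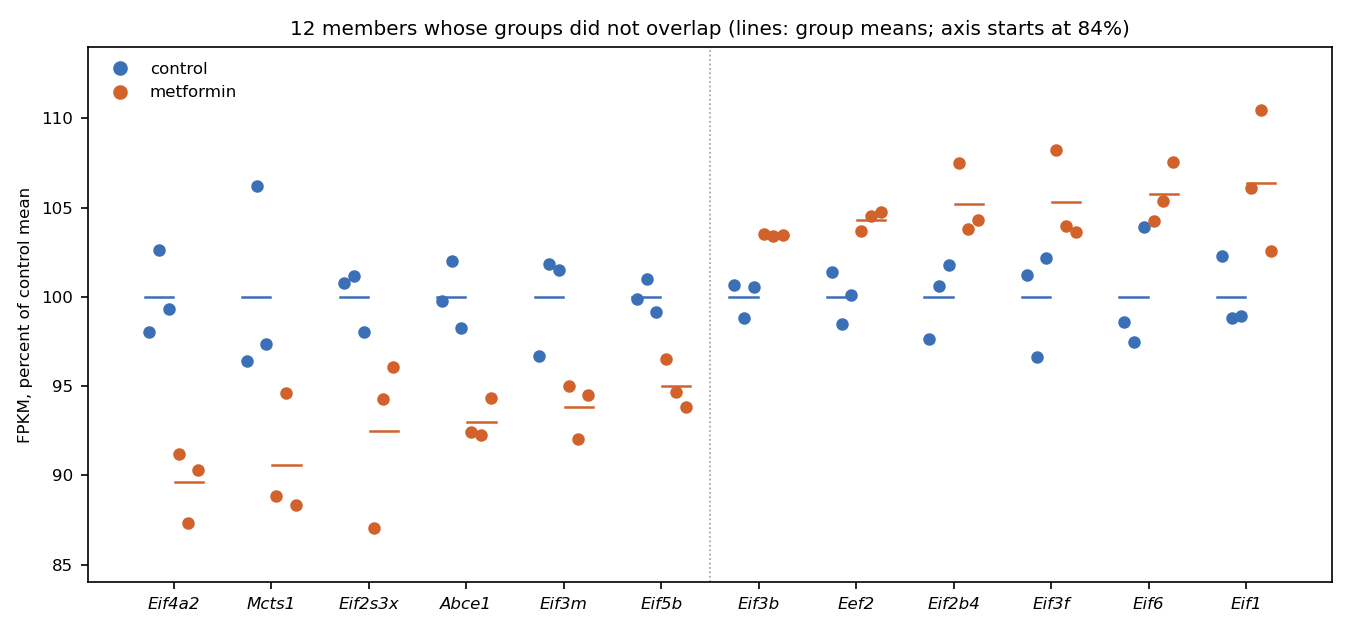
FPKM of 12 members whose groups did not overlap, in percent of the control mean (vertical axis, starting at 84%); points are libraries and lines group means. On the left Eif4a2 shows the widest gap, with all 3 metformin libraries between 63.57 and 66.39 FPKM against 71.37 to 74.73 FPKM in the control; on the right Eif3b shows the tightest metformin group.

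Eif4a2 had the largest difference and the smallest p of the 50. It encodes a DEAD-box helicase of eIF4F that unwinds mRNA ahead of the small subunit, and lies on chromosome 16 at 23107444 to 23114136 on the plus strand (ENSMUSG00000022884). Its levels were 71.37, 74.73 and 72.33 FPKM in the control and 66.39, 63.57 and 65.75 FPKM in the metformin libraries. The group means were 72.81 ± 1.73 and 65.24 ± 1.48 FPKM (SD, n = 3), a difference of -10.4%, with no overlap between the groups. The log2 fold change was -0.16 ± 0.0278 (SE), with an unadjusted p of 0.000718 and an adjusted p of 0.283 by limma. The annotated span of Eif4a2 overlaps 194 bases of Rfc4, a gene on the opposite strand, whose levels of 33.43, 33.05 and 32.28 FPKM in the control and 30.49, 28.9 and 29.82 FPKM in the metformin libraries also did not overlap. Whether reads were counted by strand is not given in the sources used here, and the part of Rfc4 in the difference was not tested. In addition, 41.3% of the windows of Eif4a2 have a copy elsewhere.

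The other helicase gene, Eif4a1, differed less, and its estimate had the opposite sign. It had 82.07, 85.55 and 81.55 FPKM in the control and 84.55, 84.46 and 86.26 FPKM in the metformin libraries, with a log2 fold change of 0.03 and an adjusted p of 0.659 by limma. The ratio of Eif4a1 to Eif4a2, which does not depend on the scaling of a library, was 1.15, 1.14 and 1.13 in the control and 1.27, 1.33 and 1.31 in the metformin libraries. All 3 metformin ratios lay above all 3 control ratios, and the means were 1.14 ± 0.0118 and 1.30 ± 0.0282 (SD, n = 3). The difference was 0.19 ± 0.0198 (SE) on the log2 scale, with p = 0.1 by the exact permutation test and 0.5 after adjustment over the 5 paralogous pairs compared. The longest run of bases that transcripts of the pair share is 20, whereas 86.1% of the windows of Eif4a1 have a copy elsewhere.

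The other 4 pairs overlapped between the groups. Eif1 exceeded Eif1b 3.57 ± 0.261 times in the control and 3.76 ± 0.208 times in the metformin libraries (exact permutation p = 0.4). Eif4e exceeded Eif4e2, a cap-binding relative that represses translation, 3.16 ± 0.164 and 2.97 ± 0.101 times (exact permutation p = 0.2). Eif4g1 exceeded Eif4g2, a relative that lacks the eIF4E-binding region, 1.31 ± 0.00974 and 1.37 ± 0.0689 times (exact permutation p = 0.3). Against the other scaffold gene, Eif4g3, Eif4g1 stood 8.03 ± 0.176 and 8.13 ± 0.0864 times higher (exact permutation p = 0.6). The adjusted p was 0.5 for the first 3 of these and 0.6 for the last.

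**Figure D4:**
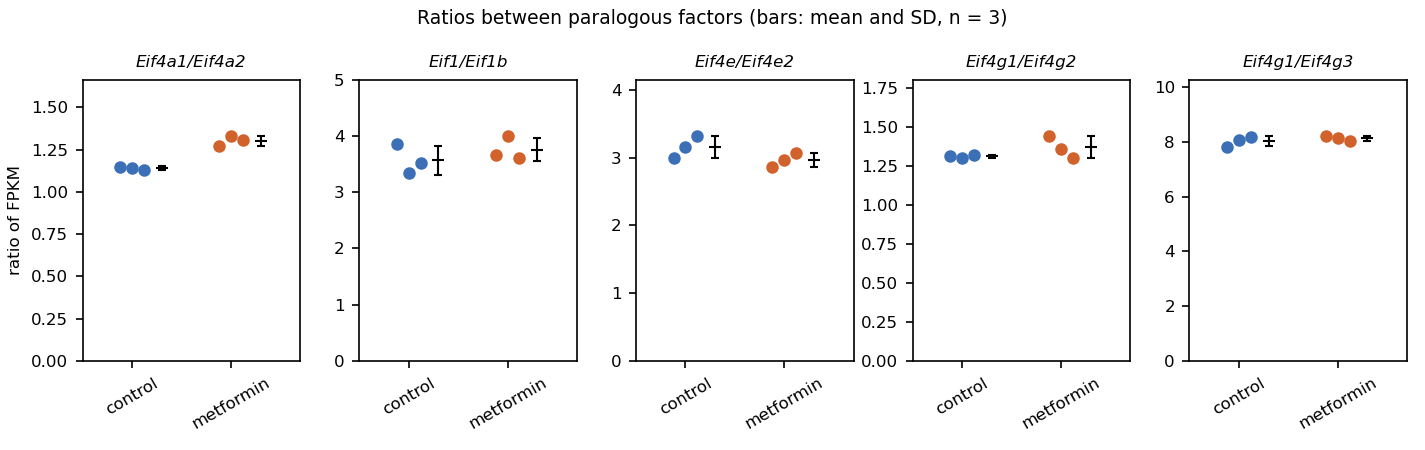
Ratio of FPKM between 5 pairs of paralogous factors in each library (vertical axes start at 0); blue points are control, orange points metformin, and black bars mean and SD of 3 libraries. The Eif4a1/Eif4a2 ratio is 1.13 to 1.15 in the control and 1.27 to 1.33 in the metformin libraries, and the groups overlap in the other 4 pairs.

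In eIF4 as a whole, 5 of 9 genes had estimates above 0 and 4 below, with a median log2 fold change of 0.0129. Eif4e, the cap-binding protein itself, had 54.01, 57.24 and 54.83 FPKM in the control and 52.42, 52.41 and 53.83 FPKM in the metformin libraries, all of the latter below the former. Its log2 fold change was -0.06 ± 0.0288 (SE), with an adjusted p of 0.475 by limma. Eif4g1, the scaffold that joins cap and small subunit, had 211.22, 209.79 and 211.16 FPKM in the control and 218.61, 216.9 and 210.6 FPKM in the metformin libraries. Its groups overlapped, as did those of its relatives. Eif4g2 had 161.46, 161.58 and 160.23 FPKM in the control and 151.73, 159.33 and 161.55 FPKM in the metformin libraries, and Eif4g3 had 26.96, 25.95 and 25.83 against 26.63, 26.63 and 26.2 FPKM. Eif4e2 had 18.06, 18.14 and 16.52 FPKM in the control and 18.3, 17.64 and 17.56 FPKM in the metformin libraries. The helicase cofactors Eif4b and Eif4h had log2 fold changes of 0.00 and 0.02, and Eif4b had the same mean of 217.7 FPKM in both groups.

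Abce1 had the second smallest p of the 50. It encodes the iron-sulfur ATPase that splits ribosomes after termination, and lies on chromosome 8 at 79683462 to 79711740 on the minus strand (ENSMUSG00000058355), with TGACGTCA at its start as printed above. Its levels were 88.53, 90.53 and 87.2 FPKM in the control and 82.03, 81.89 and 83.73 FPKM in the metformin libraries, and the groups were well apart. The means were 88.75 ± 1.68 and 82.55 ± 1.02 FPKM (SD, n = 3), with a log2 fold change of -0.10 ± 0.0231 (SE) and an adjusted p of 0.320 by limma. The other genes of termination differed less. Etf1, which encodes the release factor that reads stop codons, and Gspt1, its GTPase partner, both had a log2 fold change of -0.02, and Gspt1 had the smallest SD within groups among the 50 genes when both groups were pooled.

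Eef2 had the smallest p of the genes that stood higher. It lies on chromosome 10 at 81176631 to 81182498 on the plus strand (ENSMUSG00000034994). Its levels were 1215.06, 1180.29 and 1199.3 FPKM in the control and 1242.66, 1252.4 and 1255.23 FPKM in the metformin libraries. The gap between the highest control and the lowest metformin library was narrow beside the level itself, with means of 1198 ± 17.4 and 1250 ± 6.59 FPKM (SD, n = 3). The log2 fold change was 0.06 ± 0.0162 (SE), with an adjusted p of 0.346 by limma, and the unadjusted p was 0.00659. Eef2 and Abce1 both hold TGACGTCA, and their estimates had opposite signs. A link between the element and these differences was not tested.

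Elongation factors other than Eef2 overlapped between the groups in every case. Of the 7 genes, 5 had estimates above 0 and 2 below, with a median log2 fold change of 0.0246. Eef1a1 had a log2 fold change of -0.01 (adjusted p = 0.867 by limma), with an interval of -0.0516 to 0.0306. The genes of its exchange complex, Eef1b2, Eef1d and Eef1g, had 0.02, 0.05 and 0.02. Eif5a had 0.03 (adjusted p = 0.655 by limma) and Eef2k -0.00 (adjusted p = 0.996 by limma), whose interval of -0.116 to 0.113 is among the wider ones at this low level.

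Among the 7 genes grouped under start codon selection and subunit joining, 6 had estimates above 0, which is a description only. Eif1ad is counted here by name, and its part in these steps is not established by these data. Eif1, the gatekeeper of start codon choice, had 109.41, 105.67 and 105.81 FPKM in the control and 113.5, 118.19 and 109.71 FPKM in the metformin libraries. Its log2 fold change of 0.09 ± 0.0314 (SE) was the highest of all members (adjusted p = 0.397 by limma), with the metformin libraries further apart than the control libraries. Eif1b, its paralogue, had 28.38, 31.63 and 30.07 FPKM in the control and 31.03, 29.58 and 30.33 FPKM in the metformin libraries, which interleaved. Eif6, which keeps free large subunits from joining too early, had 45.94, 45.41 and 48.41 FPKM in the control and 48.57, 49.1 and 50.11 FPKM in the metformin libraries. Its groups only just separated (log2 fold change 0.08 ± 0.0308 SE, adjusted p = 0.427 by limma). The exception in this role was Eif5b, the GTPase of subunit joining, with 49.89, 50.47 and 49.53 FPKM in the control and 48.22, 47.3 and 46.87 FPKM in the metformin libraries. Both groups of Eif5b were tight, and the log2 fold change was -0.07 ± 0.0232 (SE) with an adjusted p of 0.374 by limma. Eif1ax, Eif1ad and Eif5 lay between, at 0.03, 0.06 and 0.01.

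The genes of eIF2 and its exchange factor eIF2B went both ways, with 3 of 7 estimates above 0 and a median of -0.00953. Eif2s3x, the X-linked gene of the GTP-binding gamma subunit, had 30.72, 30.84 and 29.89 FPKM in the control and 26.54, 28.74 and 29.29 FPKM in the metformin libraries. All metformin libraries were lower, the first of them most, and the log2 fold change was -0.11 ± 0.0402 (SE) with an adjusted p of 0.408 by limma. With 94.7% of its windows copied elsewhere, this level is among the least certain. Eif2b4, the delta subunit of eIF2B, had 32.69, 33.68 and 34.07 FPKM in the control and 36.0, 34.75 and 34.93 FPKM in the metformin libraries. Its groups did not overlap (log2 fold change 0.07 ± 0.0282 SE, adjusted p = 0.436 by limma). The remaining subunits overlapped between the groups. The alpha and beta subunits of eIF2B, Eif2b1 and Eif2b2, had the opposite estimates of -0.10 and 0.08, and Eif2b5, Eif2s2 and Eif2b3 had 0.05, -0.01 and -0.02.

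All 4 factors that load initiator tRNA by another route or clear the small subunit had estimates below 0, with a median of -0.0606. Mcts1, which works with Denr to remove tRNA from the small subunit and allow reinitiation, had 31.2, 34.37 and 31.5 FPKM in the control and 28.75, 30.61 and 28.59 FPKM in the metformin libraries. The groups did not overlap, although the highest metformin library came close to the lowest control library. The log2 fold change was -0.14 ± 0.0455 (SE), with an adjusted p of 0.379 by limma. Denr, its partner, had -0.03 and overlapping groups (adjusted p = 0.794 by limma). Eif2a had -0.09 and Eif2d -0.03, also with overlap, and without control 2 the estimate of Eif2d turned to 0.0294. None of these 4 passed the test, and with 4 genes the shared sign is a description only.

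In eIF3, the scaffold of initiation on the small subunit, 10 of 13 estimates were above 0, with a median log2 fold change of 0.02. Eif3b, a core subunit, had 336.37, 330.28 and 335.97 FPKM in the control and 345.9, 345.6 and 345.82 FPKM in the metformin libraries. The metformin values were closer together than counting alone would give, with a CV of 0.0449% beside an approximate counting error of 0.846%, and the log2 fold change was 0.05 ± 0.0163 (SE, adjusted p = 0.381 by limma). Eif3f, whose printed start is a pyrimidine tract, had 94.13, 89.84 and 94.99 FPKM in the control and 100.65, 96.69 and 96.38 FPKM in the metformin libraries. Its log2 fold change was 0.07 ± 0.0297 (SE, adjusted p = 0.444 by limma). Eif3h was also higher in each metformin library, by a log2 fold change of 0.04. Eif3m and Eif3e lay the other way. Eif3m had 61.03, 64.27 and 64.06 FPKM in the control and 59.97, 58.08 and 59.64 FPKM in the metformin libraries, with a log2 fold change of -0.09 ± 0.0284 (SE, adjusted p = 0.369 by limma), and Eif3e had -0.05. Copies elsewhere cover 58.3% and 50.1% of these last 2 genes, against 0.988% of Eif3b and 0.403% of Eif3f. Eif3j1 had the widest interval of the 50, from -0.109 to 0.251 around 0.07, at about 359 fragments per library. The other 7 subunits (Eif3a, Eif3c, Eif3d, Eif3g, Eif3i, Eif3k and Eif3l) overlapped between the groups, with estimates from -0.03 for Eif3a to 0.05 for Eif3d.

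The translation of TOP mRNAs is known to depend on mTORC1. Of the members, 10 (Eef1a1, Eef1b2, Eef1d, Eef1g, Eef2, Eif3a, Eif3e, Eif3f, Eif3h and Eif4b) were listed as TOP mRNAs from general knowledge. They held 65.5% to 66.2% of the members' summed FPKM in the 6 libraries, with a median level of 217 FPKM beside 57.0 FPKM for the other 40. Their median log2 fold change was 0.0209 and that of the other 40 was 0.0139, with 6 and 23 estimates above 0. None passed the test. The 78 of 79 listed cytosolic ribosomal protein genes that were matched and tested, which are TOP mRNAs as well, had a median of -0.00134, with 37 estimates above 0 and 41 below. Of these, Rpl3 and Rpl10 had the largest differences without overlap. Rpl10 had 89.61, 92.81 and 90.78 FPKM in the control and 80.76, 85.58 and 83.25 FPKM in the metformin libraries, a log2 fold change of -0.13 (adjusted p = 0.320 by limma). Rpl3 had a log2 fold change of -0.17 (adjusted p = 0.331 by limma). Its means were 19.14 FPKM in the control and 16.91 FPKM in the metformin libraries, beside 1232 and 1242 FPKM for Rpl4. Copies elsewhere in the genome were not searched for the ribosomal protein genes. How far shared reads affect the levels and the median of this list was not tested.

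Libraries of the same group agreed closely for these genes. The median SD within groups was 0.0338 on the log2 scale, beside 0.0601 for all genes tested and 0.0451 for genes averaging at least 10 FPKM. In FPKM the median CV was 2.20% in the control and 2.27% in the metformin libraries, where counting alone gives approximately 1.73% for the median member. The approximate number of fragments behind a value, taken from exon lengths of GENCODE M1, ran from 359 for Eif3j1 to 155000 for Eef1a1, with a median of 3370. These figures cover counting error only.

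**Figure D5:**
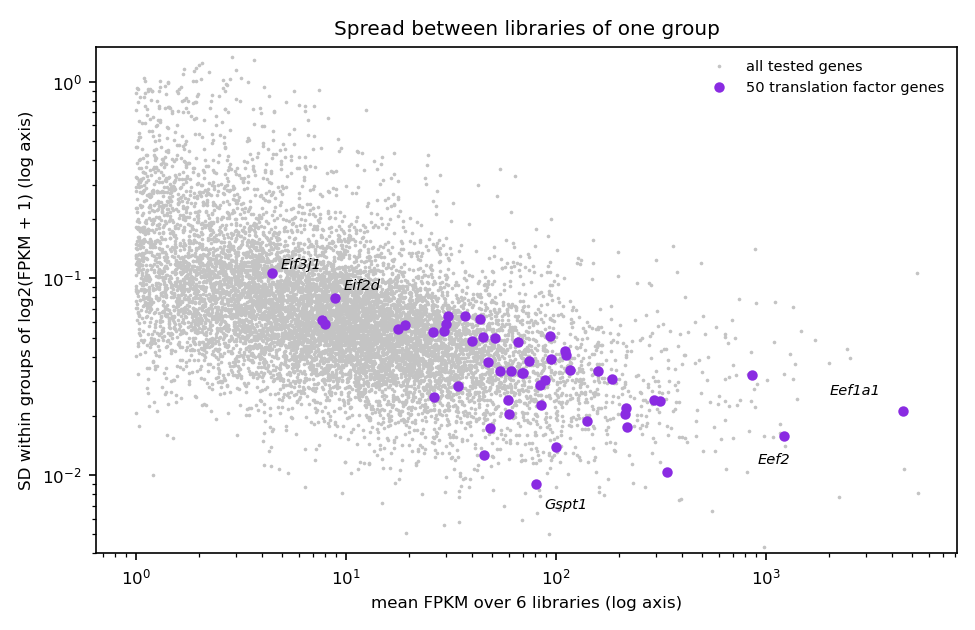
SD of log2(FPKM + 1) between libraries of one group (vertical, log axis) against mean FPKM over 6 libraries (horizontal, log axis) for all 10661 genes tested (grey) and the 50 translation factor genes (purple). The median SD of the members is 0.0338, beside 0.0601 for all genes, and the members sit mostly at the high levels where the spread of genes in general is small.

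Genes that act on the translation factors, grouped by function, likewise held no gene with an adjusted p under 0.05 by limma. Of 15 regulators tested, 12 had estimates above 0, and 4 stood higher in every metformin library with none lower (unadjusted p under 0.05 for 3 and 0). Of all genes, 52.3% had estimates above 0, 8.89% stood higher and 8.10% lower without overlap, and 6.03% and 4.81% had such a p. With 15 genes the counts are a description. Ppp1r15a, which directs a phosphatase to eIF2, had 9.04, 9.52 and 10.3 FPKM in the control and 12.69, 12.06 and 12.73 FPKM in the metformin libraries. All 3 metformin libraries were clearly above the control, and the log2 fold change of 0.35 ± 0.0506 (SE, adjusted p = 0.223 by limma) was larger in size than that of any member. Eif4ebp1, an inhibitor of eIF4E, had 35.23, 36.9 and 35.01 FPKM in the control and 41.5, 39.63 and 39.26 FPKM in the metformin libraries. Its log2 fold change was 0.16 ± 0.0331 (SE, adjusted p = 0.301 by limma), opposite in sign to the -0.06 of Eif4e.

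Of 14 other cytosolic factors tested, 7 had estimates above 0 and 7 below, with 3 higher and 1 lower without overlap, where 8.89% and 8.10% of all genes stood. Eif3j2, the paralogue that shares sequence with Eif3j1, had 27.88, 27.33 and 26.84 FPKM in the control and 23.75, 26.5 and 26.01 FPKM in the metformin libraries. The log2 fold change was -0.10 (adjusted p = 0.458 by limma), against 0.07 for Eif3j1, which shares 41.0% of its windows with Eif3j2 and whose estimate turned to -0.00303 without control 3. Eif4a3, a helicase of the exon junction complex, had 100.16, 98.09 and 100.73 FPKM in the control and 103.89, 104.44 and 105.29 FPKM in the metformin libraries (log2 fold change 0.07, adjusted p = 0.357 by limma). Of 8 enzymes that make hypusine on eIF5A and diphthamide on eEF2, 5 had estimates above 0, and Dph6 alone did not overlap (0.06, adjusted p = 0.710 by limma). Of 10 mitochondrial translation factors, 5 had estimates above 0 and 5 below. Mtrf1, a mitochondrial release factor, had 3.28, 3.15 and 3.5 FPKM in the control and 3.6, 4.48 and 3.84 FPKM in the metformin libraries (log2 fold change 0.20, adjusted p = 0.421 by limma). Mtif2, the mitochondrial initiation factor, had 9.74, 9.95 and 10.0 FPKM in the control and 8.84, 9.14 and 9.55 FPKM in the metformin libraries (-0.10, adjusted p = 0.432 by limma). In this list 2 genes were higher and 1 lower without overlap, beside the same 8.89% and 8.10% of all genes.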

How the data were processed

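RNA-seq of 3 control and 3 metformin libraries was analysed. The authors deposited FPKM values, 1 column per library, and their mapping, counting and normalization are part of these values. The submitters' processing notes name HISAT2, DESeq2 and mm9 without a role, yet gene positions in the table are those of GRCm38, and the counter is not given in the sources used here. The labels name a stranded KAPA kit and the study's methods a VAHTS mRNA-seq v2 kit.

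Symbols were found for 32589 of 55401 Ensembl identifiers, and for all 50 members (Eif3j1 through its synonym and position). The 10661 genes averaging at least 1 FPKM, of which 10029 have a symbol, were tested as log2(FPKM + 1) with limma 3.58.1 in R 4.3.3 (lmFit, eBayes with a trend, two-sided, Benjamini-Hochberg, threshold 0.05). Ratios between paralogues were tested with exact two-sided permutation tests. Lists were described by counts and medians, without a test. Depth was estimated from the step that 1 fragment makes in genes with a single exon under 400 bp, where 100% of the 366 to 410 values per library lay within 0.1 of a whole number. FPKM keeps no counts for longer genes, so no count test was run.

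The members, lists, limits and tests were chosen with earlier results of these data known. Given library by library were the 5 members with the smallest p in each direction, the 6 largest changes in each direction among members without overlap, the 4 highest and 4 lowest means, and the members of the paralogous pairs. Of other pathway genes, up to 2 per list were given, those with the largest change without overlap. Also run were fits without a filter, with the filter at 10 FPKM, with a pseudocount of 0.1, on TPM, quantile-normalized or median-centred values, with a replicate block, with unmoderated spreads, with moderation but no trend, and without each library in turn. The fit was tested on simulated data. Promoters came from RefSeq (GRCm38.p6). Copies were searched with Python 3.11.15 and figures drawn with matplotlib 3.10.9.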

Additional observations from a re-analysis of the deposited data

How the results depend on the processing

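No member had an adjusted p under 0.05 under any of the 15 alternatives, and the median log2 fold change of the members stayed between 0.0062 and 0.0197. The number with an interval within 1.2-fold was 46 of 46 with the filter at 10 FPKM and 48 to 50 of 50 otherwise. Of all genes tested, 3 were called lower without a filter, where 0 were called with it, and 0 to 1 when a library was left out. Members higher at an unadjusted p under 0.05, 6 as reported, were 3 with quantile normalization, 0 without the trend and 3 with each gene's own spread; the cause was not tested. Leaving out a library gave 2 to 8 higher and 2 to 7 lower. Without control 1 the count higher was 3, and without control 2 both counts were 2. Members without overlap were then 8 to 13 higher and 8 to 12 lower. The count higher was 12 without control 2 and 13 without control 3 or metformin 2. Groups of 2 against 3 overlap less by construction. For these counts, at an unadjusted p or without overlap, the shares of all genes under the same alternative are not given. Of 371 values of named members under alternatives, 361 kept their sign. Eef1a1 turned to 0.00914 with quantile normalization, and small estimates of 6 others turned when a library was left out, with ranges of -0.0243 to 0.0513 for Eif1b, -0.0647 to 0.0294 for Eif2d, -0.00303 to 0.114 for Eif3j1, -0.0205 to 0.0433 for Eif4e2, -0.0298 to 0.0454 for Eef2k and -0.0654 to 0.00389 for Eif2b3. Eif4a2 kept a log2 fold change of -0.17 to -0.14 with adjusted p of 0.151 to 0.472 by limma, Abce1 -0.12 to -0.09 with 0.204 to 0.501, and Eef2 0.03 to 0.07 with 0.24 to 0.70.

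Control and metformin libraries carry the same replicate numbers, but deviations of same-numbered libraries correlated at -0.0317, 0.0181 and 0.0479, beside -0.0504 to 0.03 for libraries of different number. All were under 0.1, so the numbers were not taken as a pairing. With the number as a replicate block, 5 members were higher and 6 lower at an unadjusted p under 0.05, 0 passed adjustment, and the ratio of Eif4a1 to Eif4a2 differed by the same 0.191 on the log2 scale, with p = 0.25, the smallest the paired exact permutation test allows.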

Other observations

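Some paralogues of the members were listed at 0 FPKM in all 6 libraries. They were Eif2s3y, the Y-linked counterpart of Eif2s3x, Eef1a2, the muscle and nerve counterpart of Eef1a1, and the cap-binding relatives Eif4e3 and Eif4e1b. Eif2s1, the alpha subunit of eIF2 that stress kinases phosphorylate, had 61.08, 66.34 and 64.21 FPKM in the control and 60.01, 62.88 and 61.55 FPKM in the metformin libraries (log2 fold change -0.05, adjusted p = 0.613 by limma), with overlapping groups. Pabpc1, the poly(A)-binding protein that works with eIF4G, had 377.85, 377.64 and 375.41 FPKM in the control and 401.06, 392.12 and 389.89 FPKM in the metformin libraries, which did not overlap (0.06, adjusted p = 0.346 by limma). All of these were chosen with their values known.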
